A study of Mus musculus with 34 samples.

Results

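A group of 10 genes of the NF-κB system was followed through the ChIP-seq peak lists of mouse bone marrow-derived dendritic cells (BMDCs): the subunit genes Rela, Relb, Rel, Nfkb1 and Nfkb2, and the inhibitor and regulator genes Nfkbia, Nfkbie, Nfkbiz, Tnfaip3 and Tnip1. They were chosen by name and function and not by a measured value, but with earlier results of these data known. They are 10 of 21938 protein-coding genes of the GENCODE annotation of mm10. BMDCs of C57BL/6 mice, labelled as 8 weeks old, were grown for 6 days with GM-CSF, with 4-OH tamoxifen on the first day, and the methods describe a final selection of CD11c+ cells. Control cells carried Rosa26-CreER alone (genotype CreER; conditions WT and WTLPS), and cells meant to lose CTCF carried CreER;CTCF fl/fl (KO and KOLPS). WTLPS and KOLPS cells were treated for 3 h with LPS (100 ng/ml), the bacterial cell wall component that TLR4 senses. Where 4 values follow each other without labels, they stand for WT, WTLPS, KO and KOLPS, in this order. STAT5 was profiled in WT and KO only, after renewed GM-CSF for 15 min. Cre is active in every cell type of such a culture, so any cell type in it could have lost CTCF, and the lists hold no measure of how many cells did.

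One list was used for each antibody and condition, 30 lists in all, for p65, CTCF, the cohesin subunit SMC1, STAT5, H3K27ac, H3K4me3, H3K4me1 and H3K27me3. With a single list per condition, no difference between conditions could be set against replicate spread, and no test was run. Values are given side by side and beside the same measure over all protein-coding genes or all peaks of a list. Ratios of peak numbers are set beside ratios of list lengths, which are not the same measure as counts in gene windows. Fewer cells with an occupied site and less occupancy per cell cannot be told apart in such bulk data. The lengths of the p65 lists were 781, 5465, 504 and 1752 peaks, from libraries whose background coverage, recovered from the peaks, was 0.713, 0.855, 0.705 and 0.817 fragments per base. A p65 peak call rested on at least 8, 6, 7 and 7 fragments at its summit. H3K4me3, a mark of active promoters and not a measure of RNA, lay at 8 of 9 dendritic cell marker genes in every condition (all but H2-Ab1) and at none of 4 T cell markers. It also lay at 3 or 4 of 4 macrophage and monocyte, 1 of 4 neutrophil, 2 of 4 B cell, 2 of 4 erythroid, 1 of 3 mast cell and 3 of 4 non-blood markers, so these marks separate the cell types only in part.

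NF-κB is a family of dimers built from the proteins RelA (p65, from Rela), RelB, c-Rel (from Rel), p50 (from Nfkb1) and p52 (from Nfkb2). In resting cells inhibitor proteins, foremost IκBα from Nfkbia, hold the dimers in the cytoplasm. LPS signalling through TLR4 leads to degradation of IκB proteins, the dimers enter the nucleus and bind κB sites, and among their targets are the genes of their own inhibitors, which makes a negative feedback loop. A20 (from Tnfaip3) edits ubiquitin on upstream signalling proteins, and ABIN-1 (from Tnip1) is its binding partner.

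Sequences under the p65 peaks are shown first, since the peaks called in all 4 conditions held the pattern that NF-κB is known to bind. The κB consensus, the general sequence pattern that NF-κB dimers bind, was searched on both strands. It lay inside 10 of the 13 p65 sites found at the promoters (2.5 kb to either side of the start site). Over all 5465 WTLPS p65 peaks the share was 24.5%. The 13 sites were merged over the 4 conditions, and longer stretches have more room for a match. Not every match is shown, and the sequences are not 1 per site. The long Nfkb2 site appears more than once, and the site 0.3 kb before the Tnip1 start, which also held matches, is left out. The following 30 bases (mm10) are read 5′ to 3′ on the strand given, with the match to the consensus in capitals.
Nfkb1, 35 bp after the start, chr3:135691497-135691526, minus strand: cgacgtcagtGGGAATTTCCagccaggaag
Nfkbia, 24 bp before the start, chr12:55492657-55492686, plus strand: gtcaggcgcgGGGAATTTCCaagccagtca
Nfkbiz, 35 bp after the start, chr16:55838850-55838879, minus strand: tttttggcctGGGAATTTCCagcgtgtgga
Tnip1, 1274 bp after the start, chr11:54961629-54961658, minus strand: atgaggagctGGGAATTTCCctggtgtcat
Rel, 85 bp before the start, chr11:23771041-23771070, plus strand: ggggagggggGGGGATTTCCcgctgcttac
Tnfaip3, 7 bp before the start, chr10:19015403-19015432, plus strand: ttgccaacagGGGGATTTCCgatggaaatt
Nfkb2, 382 bp after the start, chr19:46304688-46304717, plus strand: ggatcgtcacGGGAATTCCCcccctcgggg
Nfkb2, 1389 bp after the start, chr19:46305695-46305724, plus strand: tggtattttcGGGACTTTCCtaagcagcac
Nfkbia, 686 bp after the start, chr12:55491947-55491976, plus strand: cagccgcccaGGGACTTTCCgtgccccacc
Nfkbie, 105 bp before the start, chr17:45555584-45555613, plus strand: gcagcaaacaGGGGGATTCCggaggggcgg

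The same 10 bases, GGGAATTTCC, lay at the promoter sites of 4 genes, Nfkb1, Nfkbia, Nfkbiz and Tnip1. The match GGGGATTTCC was shared by Rel and Tnfaip3, and GGGACTTTCC by Nfkb2 and Nfkbia. Nfkb2 and Tnip1 shared GGGAATTCCC and GGGGAATTCC. How often these matches lie under p65 peaks elsewhere was not counted. No match lay in the Rela site, in the site 0.8 kb inside Tnfaip3 or in the site 2.5 kb before Tnip1. A further 3 matches belonged to p65 sites away from the promoters that were called in all 4 conditions, and are shown because they were the only such sites of the group outside the promoters.
Nfkb1, 20.8 kb after the start, in an intron, chr3:135670760-135670789, minus strand: gggtacataaGGGACTTTCCcactgctttc
Tnfaip3, 6.0 kb after the start, in an intron, chr10:19009421-19009450, minus strand: tcttcgcactGGGGAATTCCacatgttact
Tnfaip3, 50.3 kb after the start, outside genes, chr10:18965078-18965107, plus strand: cggcgaaaacGGGGATTTCCactttcaaaa

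RefSeq promoter sequences (a short stretch around each annotated start, GRCm38.p6) were held for 7 of the 10 genes, as 10 entries. The κB consensus lay in 8 of these 10 entries and in 4.51% of 32851 promoter entries of the table, chromosome 18 left out. The entries without a match were the Rela promoter and a start inside Tnfaip3. Several of the 8 were starts of Nfkb2, and those beginning at 46305445 and 46305680 of chromosome 19 overlap. Rela alone of the 7 genes had no match in any entry.

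The first question was at which promoters p65 was found, and in which conditions. All promoters of the group except Relb had a p65 peak after LPS in control cells, and 5 genes (Rel, Nfkb1, Nfkb2, Nfkbia and Tnfaip3) had one in every condition, unstimulated cells included. A p65 promoter peak was called at 6 and 9 of 10 genes in WT and WTLPS, and at 6 and 6 in KO and KOLPS. Over all protein-coding genes the shares were 0.501%, 2.86%, 0.369% and 1.95%, and a peak in all 4 conditions was called at 0.214%. Among the 12747 genes with H3K4me3 at the promoter in WT, the shares were 0.808%, 4.49%, 0.588% and 3.26%.

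**Figure D1:**
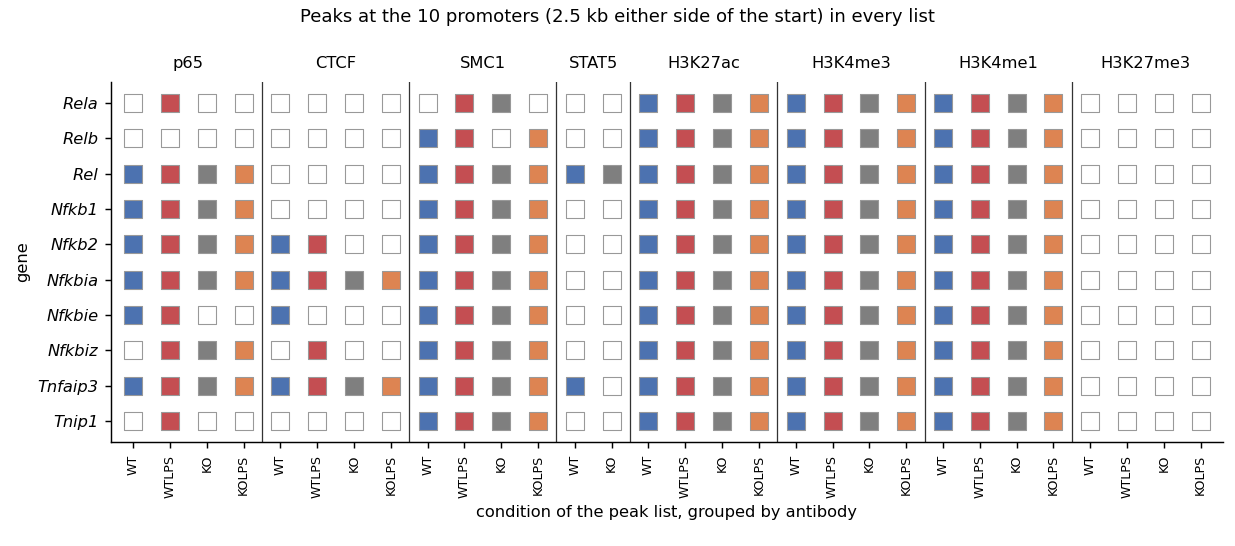
Each square is 1 gene (row) in 1 of 30 peak lists (column, grouped by antibody and coloured by condition); a filled square is at least 1 peak within 2.5 kb of the start site and an open square is none. H3K27ac, H3K4me3 and H3K4me1 squares are filled for all 10 genes and H3K27me3 squares for none, while p65 and CTCF squares differ between genes and conditions.

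Rela, which encodes p65 itself (ENSMUSG00000024927.8, chromosome 19, 5637483 to 5648130, plus strand), had a p65 promoter peak in WTLPS only, with 13 fragments (6.92 to 22.2; exact Poisson 95% interval for counting error only, as in all later intervals). Its summit lay at -705 bp from the start. Relb (ENSMUSG00000002983.17, chromosome 7, 19606217 to 19629438, minus strand), the subunit gene best known from the slower non-canonical pathway, had no p65 peak at its promoter or within 100 kb of its start in any condition.

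Rel (ENSMUSG00000020275.9, chromosome 11, 23736847 to 23770970, minus strand), the gene of c-Rel, had 11 fragments at its promoter peak in WT (5.49 to 19.7) and 24 in WTLPS (15.4 to 35.7), against 22 in KO (13.8 to 33.3) and 27 in KOLPS (17.8 to 39.3). WT was the low one, and the intervals of all 4 conditions overlapped. Nfkb1 (ENSMUSG00000028163.17, chromosome 3, 135584655 to 135691547, minus strand), the gene of p105 and p50, had 19, 26, 17 and 23 fragments. Nfkb2 (ENSMUSG00000025225.15, chromosome 19, 46304320 to 46312385, plus strand), the gene of p100 and p52, had 17, 32, 17 and 20 fragments at a site about 0.3 kb after its start. Both genes had more fragments with LPS than without in each genotype, with overlapping intervals. A second Nfkb2 site with a summit 1261 bp after the start had 10 fragments in KO and 21 in KOLPS, was not called in WT, and was part of 1 long peak of 1587 bp in WTLPS.

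Nfkbia (ENSMUSG00000021025.8, chromosome 12, 55489410 to 55492647, minus strand) had a pair of p65 peaks in every condition. The site just before the start had 19, 28, 21 and 23 fragments. At the site inside the gene, about 0.7 kb after the start, the order was different, with 30 fragments in WT (20.2 to 42.8) and 14 in WTLPS (7.65 to 23.5), against 22 in KO (13.8 to 33.3) and 40 in KOLPS (28.6 to 54.5). The intervals of WTLPS and KOLPS did not overlap there. Divided by the coverage of each library, the values at this site were 42.1, 16.4, 31.2 and 49.0. In WTLPS its summit lay at 903 bp after the start and in the other lists at 715 or 722 bp.

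Nfkbie (ENSMUSG00000023947.8, chromosome 17, 45555703 to 45563169, plus strand), which encodes IκBε, was the only promoter of the group called in WT and WTLPS and in neither CTCF-deficient condition, with 15 fragments in WT (8.4 to 24.7) and 14 in WTLPS (7.65 to 23.5). Nfkbiz (ENSMUSG00000035356.17, chromosome 16, 55811375 to 55838899, minus strand), the gene of the atypical inhibitor IκBζ that acts in the nucleus, had no promoter peak in WT and had 31 fragments in WTLPS (21.1 to 44.0), 14 in KO (7.65 to 23.5) and 21 in KOLPS (13.0 to 32.1). A call in KO but not in WT was made at this gene alone among the 10.

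Tnfaip3 (ENSMUSG00000019850.11, chromosome 10, 19000910 to 19015657, minus strand) had the strongest promoter peak of the group in WTLPS, with 51 fragments (38.0 to 67.1) against 29 in WT (19.4 to 41.6), 26 in KO (17 to 38.1) and 40 in KOLPS (28.6 to 54.5). Over the coverage of each library these values were 40.7, 59.6, 36.9 and 49.0. A further WTLPS peak 847 bp inside the gene had 8 fragments. Both LPS conditions were above both unstimulated ones, with overlapping intervals. Tnip1 (ENSMUSG00000020400.17, chromosome 11, 54910785 to 54962917, minus strand) had 3 promoter peaks in WTLPS, with 8, 12 and 14 fragments, and none in the other conditions.

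**Figure D2:**
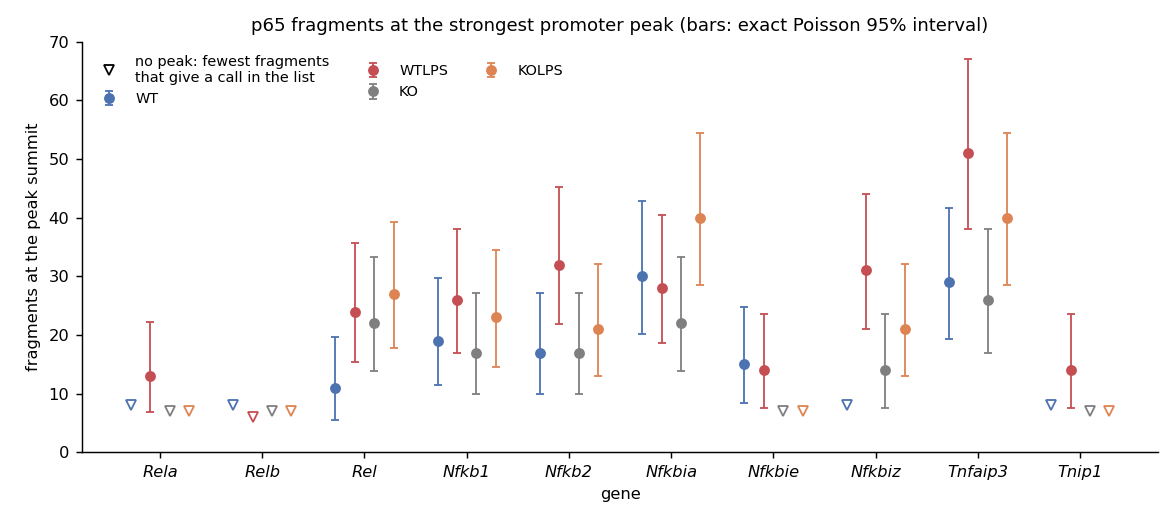
The vertical axis gives p65 fragments at the summit of the strongest promoter peak of each gene (horizontal axis), coloured by condition, with exact Poisson 95% intervals; an open triangle marks a gene with no peak, drawn at the fewest fragments that give a call in that list (6 to 8). Tnfaip3 in WTLPS is highest at 51 fragments, Nfkbia and Tnfaip3 stand at 40 in KOLPS, and the 3 genes called in WTLPS but not in KOLPS (Rela, Nfkbie and Tnip1) have 13 to 14.

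Of the 9 genes with a p65 promoter peak in WTLPS, 6 also had one in KOLPS, against 32.1% of the 627 genes called in WTLPS. Likewise 6 of the 9 also had one in WT, against 16.4%. All 6 genes called in KOLPS were called in KO, against 15.2% of 428 genes, and 5 of the 6 called in WT were called in KO, against 50.9% of 110 genes. Strength in WTLPS moved with these shares. When the 627 genes were split into 4 groups by the −log10 p of their WTLPS promoter peak, KOLPS peaks were found at 12.2%, 23.1%, 27.1% and 60.3% of them, from weakest to strongest. The 6 genes called in both conditions were all in the strongest group, and Rela, Nfkbie and Tnip1 were all in the next. The part that peak strength has in the calls of these 3 genes was not tested. At a −log10 q of at least 5 in every list, the counts of promoters called were again 6, 9, 6 and 6. With each list restricted to its 504 strongest peaks, the length of the shortest list, they were 5, 3, 6 and 6, a setting that keeps all KO peaks and few of the WTLPS peaks.

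Next, p65 peaks within 100 kb of each start were counted. LPS-treated control cells had 56 such peaks around the 10 genes, against 12 in WT, with 12 in KO and 18 in KOLPS, and most of the additional peaks lay around Tnfaip3, Tnip1, Nfkbiz, Nfkb1 and Nfkbia. At least 1 peak lay near 7, 9, 6 and 8 genes, against 8.65%, 33.1%, 5.92% and 17.9% of all protein-coding genes. No peak was counted for more than 1 of the genes. The step from WT to WTLPS was 4.67-fold for these genes and 7.0-fold for the length of the whole list. From KO to KOLPS it was 1.5-fold against 3.48-fold, and KOLPS had 0.321 times the WTLPS number both around the genes and in the whole list. When each list was restricted to its 504 strongest peaks, which by construction takes away any gain in list length, these 3 ratios around the genes were 0.778, 0.917 and 1.57. At a −log10 q of at least 5 in every list they were 4.5, 1.5 and 0.333. List length is not a count in windows. The mean count within 100 kb over all protein-coding genes was 0.106, 0.661, 0.0676 and 0.261 p65 peaks. In bases covered by p65 peaks within 100 kb, the 3 ratios around the genes were 6.38, 1.64 and 0.269. Over all protein-coding genes the same ratios of covered bases were 8.63, 4.39 and 0.33.

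Tnfaip3 had 3 and 16 p65 peaks without and with LPS in control cells, and 3 and 5 in CTCF-deficient cells. No protein-coding gene had more in WTLPS. The next were Cxcl3 and Cxcl15 with 15 each, Tnfsf15 with 14 and Cxcl5 with 13, and these 4 had 1 to 2 in KOLPS. The peaks of Tnfaip3 reached from -83.4 to 71.9 kb from its start, and Tnfaip3 was the nearest protein-coding start to each of them.

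Tnip1 had 1, 10, 0 and 1 p65 peaks, and only 19 genes had more in WTLPS. Nfkbiz had 0, 7, 2 and 2, all of them at the start or downstream of it. Nfkb1 had 2, 7, 2 and 2, of which 5 in WTLPS lay between 51.2 and 83.2 kb after the start, inside the gene. For these 3 genes WTLPS was thus the high condition, and KOLPS had at most 2 peaks.

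Nfkbia had 2, 6, 2 and 2 p65 peaks, and Rel had 2, 5, 1 and 3. Counts were low at Rela (0, 2, 0 and 0), Nfkbie (1, 2, 0 and 1) and Nfkb2 (1, 1, 2 and 2), and at Relb there were none. Up to 12 other protein-coding starts lay within 100 kb of a gene of the group, at Rela, while Rel, Nfkb1 and Tnfaip3 had none, so a peak near Rela, Relb, Nfkb2 or Nfkbie has more possible genes.

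**Figure D3:**
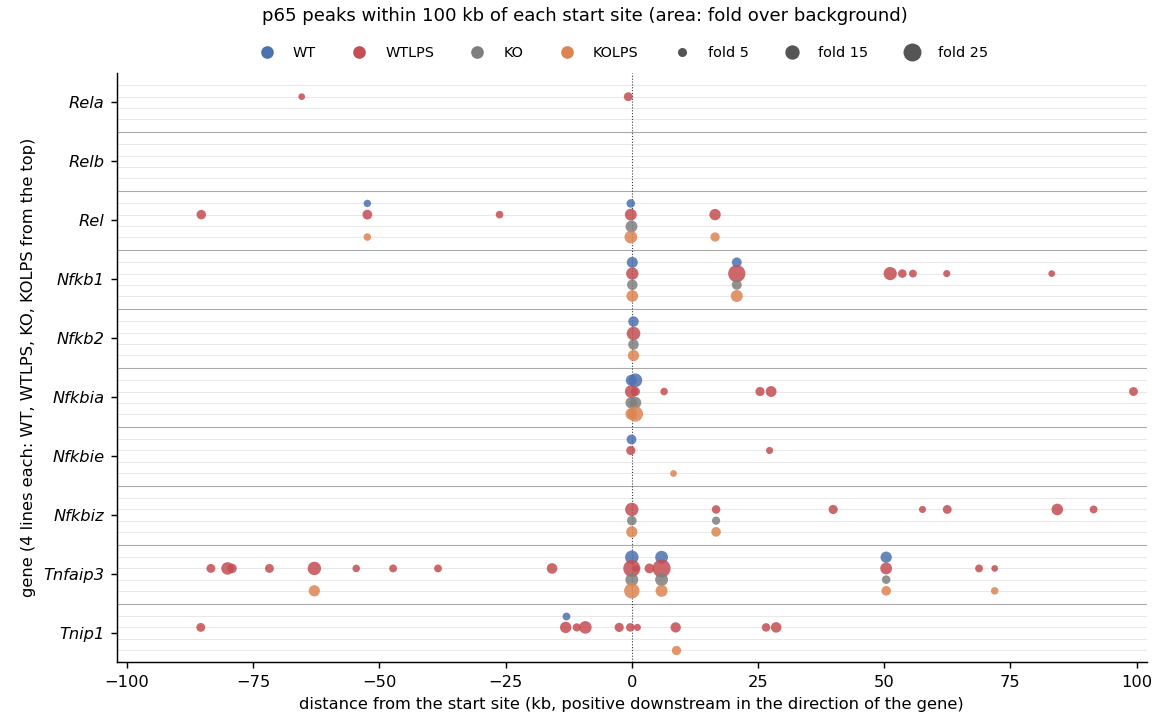
Each dot is a p65 peak, placed by its distance from the start site in kb (horizontal axis, positive downstream) on 4 lines per gene for WT, WTLPS, KO and KOLPS, with the dot area proportional to the fold over background. WTLPS dots spread over the windows of Tnfaip3, Tnip1, Nfkbiz and Nfkb1, while dots of the other conditions stand mostly at the starts and at a few shared sites such as 20.8 kb into Nfkb1.

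Merged over the 4 conditions, these peaks formed 57 sites, of which 13 lay at the promoter of the gene, 19 overlapped an annotated exon, 11 an intron and 27 no gene. The gene of the group had the nearest protein-coding start at 51 of the 57. In all 4 conditions 9 sites were called and in WTLPS alone 38. The 9 shared sites were 6 promoter sites (1 each at Rel, Nfkb1, Nfkb2 and Tnfaip3, and both of Nfkbia), the Nfkb1 intron site and the Tnfaip3 sites 5.9 and 50.4 kb after the start. Of all 5465 WTLPS peaks, 5.38% were called in all 4 conditions, against 16.1% (8.69 to 27.8; 95% Wilson interval) of the 56 peaks around these genes. Peaks called in WTLPS alone made up 72.4% of the whole list and 67.9% of the 56, so that share was near the whole-list one.

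Shared sites were stronger than those called in WTLPS alone. Their WTLPS fold ran from 8.08 to 31.3 with a median of 15.6, and that of the 38 WTLPS-only sites from 4.31 to 16.7 with a median of 7.28; over the whole list the medians were 19.7 for 294 shared peaks and 6.47 for 3954 WTLPS-only peaks. The Tnfaip3 intron site was the strongest, with 57 fragments in WTLPS (43.2 to 73.9), rank 76 of 5465. At the Nfkb1 intron site there were 52 (38.8 to 68.2), rank 95. All 9 shared sites held the κB consensus, against 48.6% of the 294 shared peaks of the whole list. Of the 38 WTLPS-only sites 9 held it (23.7%), against 19.9% of 3954. Shared peaks were longer, with a median of 749 bp around these genes, 612 bp in the whole list and 298 bp for all WTLPS-only peaks, and longer peaks have more room for a match: in intervals of the same lengths moved by 5 kb, the share was 6.46% for the 294 shared and 2.91% for the 3954 WTLPS-only peaks, and 22.2% and 7.89% around these genes. Within 50 bp of the summit the consensus lay at 30.0%, 11.9%, 23.0% and 12.6% of all p65 peaks, and around the 10 genes at 6 of 12, 10 of 56, 7 of 12 and 4 of 18.

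A KOLPS peak overlapped 16 of the 56 WTLPS peaks (28.6%, 18.4 to 41.5), against 22.7% of the whole WTLPS list. At the promoters 7 of 13 were (53.8%, 29.1 to 76.8), against 29.5% of the 638 WTLPS peaks at any protein-coding promoter. Away from the promoters 9 of 43 were (20.9%, 11.4 to 35.2), against 21.8%. Conversely, WTLPS peaks overlapped 17 of the 18 KOLPS peaks, and the exception lay 8.2 kb after the Nfkbie start, nearest to Slc35b2. At 50% overlap in place of 1 bp, 21.4% of the WTLPS peaks around the genes were shared with KOLPS, against 16.0% of the whole list.

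CTCF, the protein whose gene was targeted, and SMC1, a core subunit of the cohesin ring that CTCF halts on chromatin, were compared next. CTCF peaks around the 10 genes numbered 136, 130, 37 and 26, and each gene had fewer in KO than in WT and fewer in KOLPS than in WTLPS. KO had 0.272 times the WT number, against 0.333 for the whole list, and KOLPS 0.2 times the WTLPS number, against 0.214. The CTCF library coverage was 3.74, 3.53, 2.95 and 2.82 fragments per base, so the CTCF-deficient libraries were also the shallower ones. With each list restricted to its strongest 11576 peaks the ratios were 0.935 and 0.929.

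Nfkbie with 25, 25, 9 and 8 CTCF peaks, and Tnip1 with 24, 21, 7 and 5, had the most in every condition. Nfkb1 had the fewest in WT and WTLPS, with counts of 5, 3, 1 and 1. The median over all protein-coding genes was 9, 8, 3 and 1, and the 10 genes lay around it with medians of 11, 11.5, 3 and 2.

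At the promoters a CTCF peak was called at 4, 4, 2 and 2 of the 10 genes, against 30.0%, 27.6%, 19.6% and 10.4% of all genes. Among the 12747 genes with H3K4me3 at the promoter in WT, the shares were 42.1%, 38.8%, 31.1% and 16.3%. Tnfaip3 and Nfkbia were called in all 4 conditions. At Tnfaip3 the CTCF peak overlapped the p65 promoter peak, with its summit between -75 and -44 bp from the start, and had 86 fragments in WT (68.8 to 106) and 62 in WTLPS (47.5 to 79.5), against 40 in KO (28.6 to 54.5) and 25 in KOLPS (16.2 to 36.9). At Nfkbia it lay about 2.5 kb before the start, with 137 fragments in WT (115 to 162) and 108 in WTLPS (88.6 to 130), against 24 in KO (15.4 to 35.7) and 19 in KOLPS (11.4 to 29.7). Divided by library coverage, the Tnfaip3 values were 23.0 in WT (18.4 to 28.4) and 13.6 in KO (9.69 to 18.5), whose intervals overlap. They were 17.6 in WTLPS and 8.86 in KOLPS (5.74 to 13.1), whose intervals do not overlap. The Nfkbia values were 36.7 and 30.6 in control cells and 8.14 and 6.74 in CTCF-deficient cells, with no overlap between the genotypes. Nfkb2 had a CTCF peak at its start in WT and WTLPS (66 and 38 fragments) and none in KO or KOLPS. Weak peaks were called at Nfkbie in WT and at Nfkbiz in WTLPS, with 18 and 19 fragments, and as a second peak at Tnfaip3 in WT with 19, near the 17 that a call needed in those lists. The CTCF core consensus was in none of these promoter peaks. Within 50 bp of the summit it lay at 7.62% of all CTCF peaks in WT and at 10 of the 136 around these genes.

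Of the 136 WT CTCF peaks, 9 were overlapped by a WTLPS p65 peak (6.62%), against 0.699% of all WT CTCF peaks. Conversely a WT CTCF peak lay at 9 of the 56 WTLPS p65 peaks (16.1%, 8.69 to 27.8), against 7.76% of the whole WTLPS p65 list. The windows held a median of 5.5 WTLPS p65 peaks a gene, against a median of 0 and a mean of 0.661 over all protein-coding genes. The part of this p65 density in the overlap of the CTCF peaks was not tested.

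SMC1 peaks were dense around the group. They numbered 205, 222, 130 and 101, a median of 18.5, 20.5, 12 and 9 a gene, against 8, 7, 2 and 1 over all protein-coding genes. Every gene had fewer in KO than in WT and fewer in KOLPS than in WTLPS. KO had 0.634 times the WT number, against 0.471 for the whole SMC1 list, and KOLPS 0.455 times the WTLPS number, against 0.301. When each SMC1 list was restricted to its strongest 17241 peaks, these ratios were 1.45 and 1.63. That setting ranks peaks within a list, so peaks move up in it wherever others of the list are missing.

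Tnfaip3 had 30, 41, 23 and 26 SMC1 peaks, and a single protein-coding gene had more in WTLPS. Nfkbiz had 20, 27, 18 and 12, and Nfkbia 21, 24, 20 and 16. Nfkb1 had 17, 21, 8 and 9. In KOLPS 3 or fewer peaks were left at Relb (15, 14, 6 and 2), Rela (16, 14, 9 and 3) and Nfkb2 (14, 14, 6 and 3), whereas Tnip1 had 31, 29, 13 and 8 and Rel 24, 20, 16 and 13. Tnfaip3 and Nfkb1 were the 2 genes with more SMC1 peaks in KOLPS than in KO.

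At the promoters SMC1 was called at 9, 10, 9 and 9 genes, against 31.1%, 27.5%, 22.1% and 14.2% of all genes. Among genes with H3K4me3 at the promoter in WT, the shares were 45.9%, 40.2%, 35.3% and 23.0%. Rela lacked it in WT and KOLPS, and Relb in KO. SMC1 also lay at nearly all p65 sites of the group in stimulated control cells: 54 of the 56 WTLPS p65 peaks overlapped an SMC1 peak of WTLPS (96.4%, 87.9 to 99.0), against 88.0% of the whole p65 list. In WT, before LPS, 43 of the 56 did (76.8%, against 72.4%). Of 13 WTLPS p65 peaks without SMC1 in WT, 12 had SMC1 in WTLPS (92.3%, 66.7 to 98.6), against 58.9% of the 1511 such peaks of the whole list. In KOLPS 6 of the 13 had it (46.2%, 23.2 to 70.9), against 19.5%. Peaks chosen for having no SMC1 in WT can only stay without it or gain it.

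**Figure D4:**
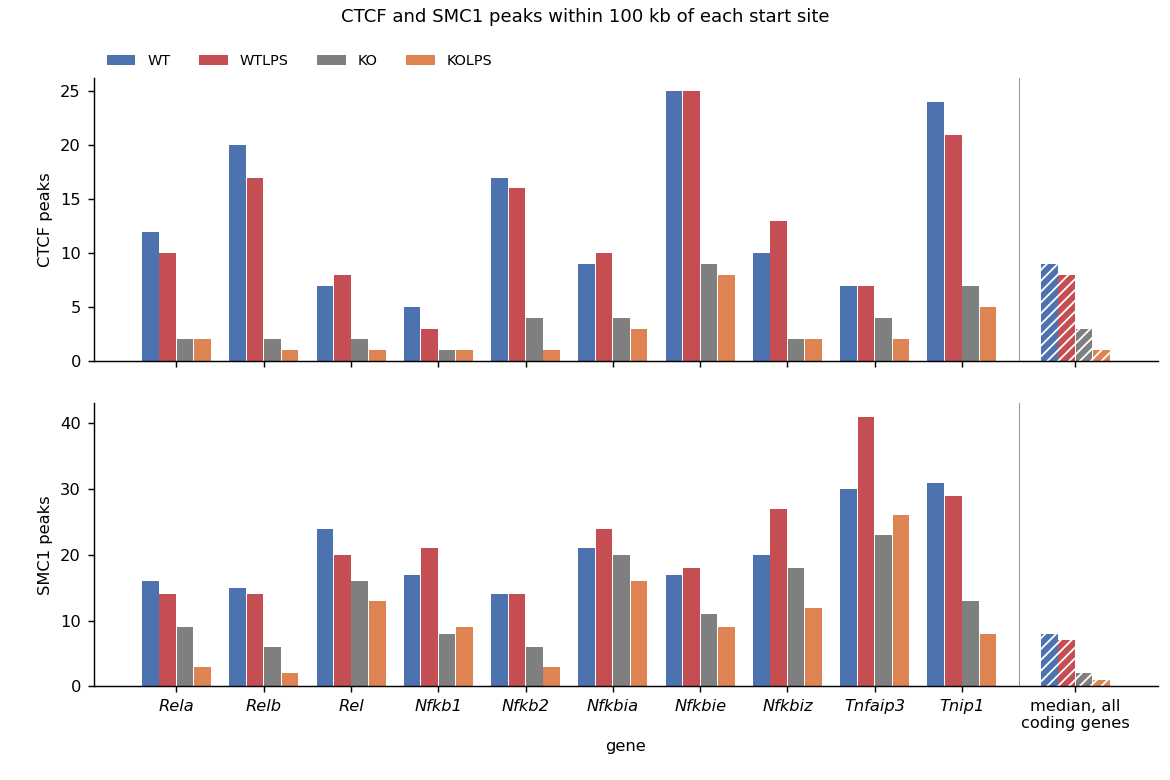
Bars give the number of CTCF peaks (upper panel) and SMC1 peaks (lower panel) within 100 kb of each start site, coloured by condition; hatched bars on the right are medians over all protein-coding genes. CTCF bars are near the median of all genes in many places and low in KO and KOLPS everywhere, while SMC1 bars stand above the median in all 4 conditions, with Tnfaip3 in WTLPS highest at 41.

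STAT5, which GM-CSF signalling activates, was precipitated with an antibody that the labels give as one to total STAT5, while the methods give the number of a phospho-STAT5 antibody, so which form the peaks show is not settled. It was called at the promoters of Rel and Tnfaip3 in WT and of Rel in KO, against 4.08% and 3.4% of all genes. Among genes with H3K4me3 at the promoter in WT, the shares were 6.3% and 5.11%. The Rel peak lay 1.6 to 1.8 kb inside the gene, with 13 fragments in WT (6.92 to 22.2) and 18 in KO (10.7 to 28.4), and held the STAT5 motif TTCNNNGAA once in each condition. The Tnfaip3 peak had 12 fragments (6.2 to 21.0) in WT, and a call in KO would have needed at least 9. Within 100 kb there were 29 STAT5 peaks in WT and 25 in KO, 0.862 times as many, against 0.837 for the whole list, so the genes moved with the list. Tnfaip3 had 7 and 9, Nfkb1 7 and 5 and Rel 5 and 3, and Rela had none. TTCNNNGAA lay within 50 bp of the summit at 13 of the 29 WT peaks (44.8%, against 37.9% of all WT STAT5 peaks). WTLPS p65 peaks overlapped 11 of the 29 (37.9%, 22.7 to 56.0), against 18% of all WT STAT5 peaks. The part that the p65 density of these windows has in this share was not tested.

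H3K27ac, H3K4me3 and H3K4me1 peaks lay at the promoter of every gene of the group in every condition. H3K27ac was called at 10 of 10 promoters in all 4 lists, against 45.2%, 42.1%, 45.6% and 41.8% of all genes. Among genes with H3K4me3 at the promoter in WT, the H3K27ac shares were 74.1%, 69.0%, 75.3% and 68.6%. H3K4me3 was called at 10 of 10, against 58.1%, 58.6%, 58.7% and 57.7%, and H3K4me1 at 10 of 10, against 57.7%, 58.0%, 57.5% and 47.1%. Among genes with H3K4me3 in WT, the H3K4me1 shares were 85.9%, 86.9%, 85.4% and 72.5%. H3K27me3, the mark of Polycomb repression, was called at none of the 10 promoters in any list, against 27.8%, 21.1%, 28.4% and 12.2%. Among genes with H3K4me3 in WT, the H3K27me3 shares were 24.4%, 19.2%, 24.4% and 11.0%. Relb, with no p65 peak, was thus marked like the other 9. Further out, H3K27me3 peaks numbered 63, 43, 72 and 21, most of them around Nfkbia, Nfkbie and Nfkb1, beside list lengths of 96475, 65880, 95080 and 26960 peaks. KO had 1.14 times the WT number around the genes, against 0.986 for the whole list.

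H3K27ac, a mark of active promoters and enhancers, covered more of the windows after LPS. In all, 330 and 475 kb were covered in WT and WTLPS, and 215 and 249 kb in KO and KOLPS, a step with LPS of 1.44-fold in control cells and 1.16-fold in CTCF-deficient cells. Over all protein-coding genes the same steps were 0.92 and 0.778. The H3K27ac libraries of KO and KOLPS had a coverage of 0.748 and 0.801 fragments per base, against 1.17 and 1.2 in WT and WTLPS, and the number of peaks went the other way, with 343, 355, 379 and 469, so the genotypes differ in how far the signal was broken into peaks. The part of library depth in the lower KO and KOLPS values was not tested.

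Tnfaip3 and Nfkbiz carried much of the step. At Tnfaip3, H3K27ac covered 47.7 kb in WT and 122 kb in WTLPS, against 29.5 kb in KO and 55.6 kb in KOLPS, of a window of 200 kb. At Nfkbiz the values were 9.37, 48.6, 7.34 and 12.8 kb. WTLPS was far above the other 3 conditions at both genes. Nfkbia (44.5, 64.0, 30.4 and 36.0 kb) and Nfkb1 (38.8, 56.2, 21.1 and 28.8 kb) also had more with LPS in each genotype. Rel had wide coverage before LPS (78.8, 82.3, 32.8 and 36.3 kb), and Rela and Relb had less with LPS than without in each genotype (31.7, 18.7, 25.9 and 18.2 kb at Rela; 26.3, 21.5, 16.4 and 14.2 kb at Relb). Tnip1 had 27.6, 33.3, 26.4 and 27 kb, and Nfkb2 and Nfkbie had at most 14.7 kb in any condition. Of 14 WTLPS p65 peaks without H3K27ac in WT, 9 had it in WTLPS (64.3%, 38.8 to 83.7), against 43.9% of the 1935 such peaks of the whole list, and 5 in KOLPS (35.7%, 16.3 to 61.2), against 31.7%.

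The bases covered by SMC1 peaks were 26.6, 44.2, 17.9 and 14.9 kb at Tnfaip3 and 13.4, 27.7, 9.11 and 7.19 kb at Nfkbiz. Over the group they came to 136, 180, 73.8 and 54.7 kb, so LPS went with more covered bases in control cells and fewer in CTCF-deficient cells, while over all protein-coding genes the ratios with LPS were 0.947 and 0.494.

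**Figure D5:**
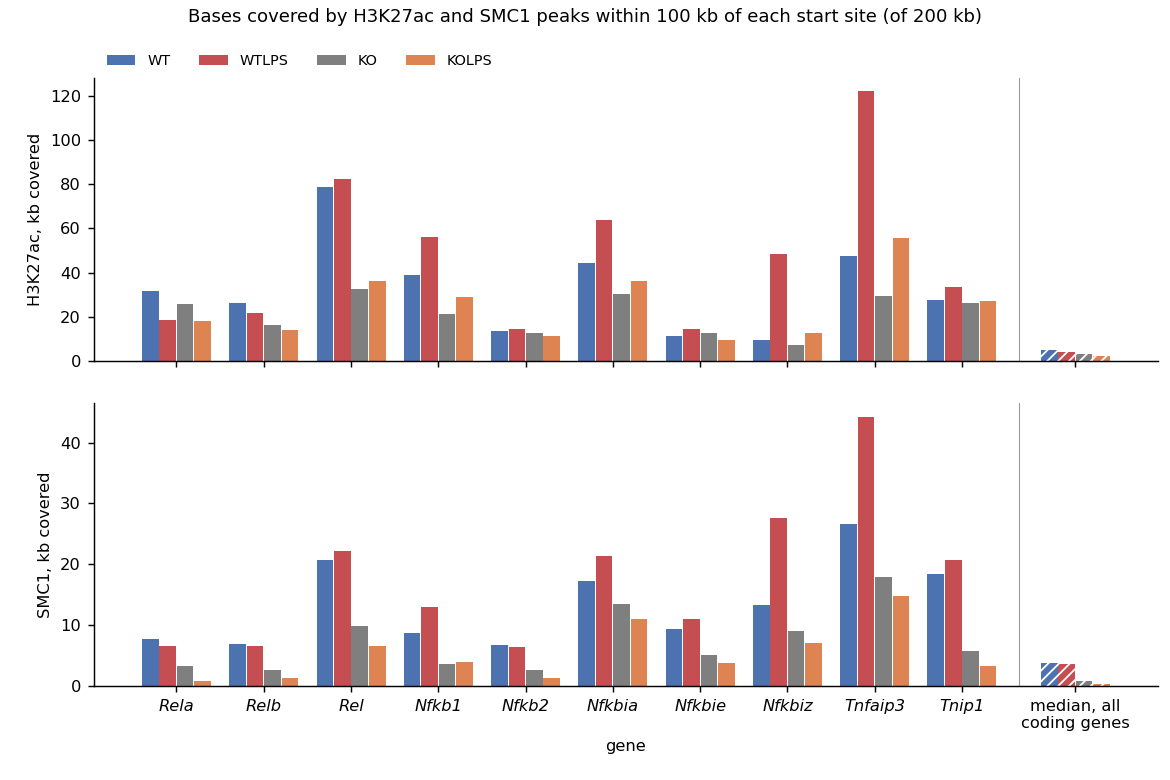
Bars give the kb covered by H3K27ac peaks (upper panel) and SMC1 peaks (lower panel) within 100 kb of each start site, coloured by condition; hatched bars are medians over all protein-coding genes. Tnfaip3 and Nfkbiz have the largest step from WT to WTLPS in both panels (47.7 to 122 kb and 9.37 to 48.6 kb of H3K27ac), and their KOLPS bars stay at 55.6 and 12.8 kb.

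For the rest of the pathway, 35 other genes were listed by function. A p65 promoter peak was called at 3, 8, 2 and 6 of them (8.57%, 22.9%, 5.71% and 17.1%), against 0.501%, 2.86%, 0.369% and 1.95% of all genes. Of the kinase genes, Ikbke, an IKK-related kinase, had one in all 4 conditions (fold 9.34, 15.6, 12.9 and 12.7), and Tbk1, its close relative, in WTLPS and KOLPS (19.4 and 12.1), whereas Chuk, Ikbkb and Ikbkg, which encode the core IKK complex, had none. Of the other IκB family genes, Nfkbib had one in WT, WTLPS and KOLPS (7.59, 8.08 and 5.5) and Nfkbid in WTLPS (5.93). Of the adaptor and ubiquitin ligase genes, Birc3, the gene of cIAP2, had one in all conditions (19.3, 18.9, 15.2 and 12.1), Birc2 in WTLPS (6.47) and Traf1 in WTLPS and KOLPS (10.8 and 8.26). Irak3, a brake on TLR signalling, had one in WTLPS and KOLPS (5.93 and 6.05). Within 100 kb the 35 genes had 14, 62, 9 and 22 p65 peaks, a mean of 0.4, 1.8, 0.257 and 0.629 a gene, against 0.106, 0.661, 0.0676 and 0.261 over all protein-coding genes. These totals are sums over genes, in which a peak near both of the neighbours Birc2 and Birc3 counts for each of them.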

How the data were processed

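Peak lists of 8 antibodies in BMDCs were used, 30 lists for 34 samples, of which 4 were inputs. According to the study's methods, the authors trimmed paired-end reads, aligned them to mm10, removed duplicates and called peaks with MACS2 in paired-end mode without a shift model. The submitters' processing notes name BWA 0.7.12, Picard 1.77, MACS2 2.1.2 and deepTools 3.1.3, and the methods name other versions. The deposited CTCF and SMC1 lists hold only peaks the authors kept at a −log10 p of at least 7. The methods state that peaks were called for each sample and replicate, and the reporting summary says of all experiments that data of replicates were combined. Neither says which of these the deposited lists are. The STAT5 antibody differs between labels and methods.

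Each deposited list gives a position, a fold (fragment pileup plus 1 over local background plus 1), a −log10 p and −log10 q against that background, and a score that MACS2 makes from the q-value and that was not used. For the broad H3K4me1 and H3K27me3 lists the authors' values are means over a peak, so no fragments were recovered. For narrow peaks, a whole number of fragments and a background were solved from fold and p. The commonest background among peaks with −log10 p below 25, solved to within 0.002, was taken as the library's coverage. This recovery and the overlap counts were tested on simulated data with known answers. Intervals are exact Poisson (fragments) or Wilson (shares) at 95% and cover counting error only.

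Start sites were those of the transcript of longest genomic span per protein-coding gene (GENCODE, mm10), since the start by exon length lies in an intron for Nfkb1. A promoter was 2.5 kb and a window 100 kb to either side, with an overlap of 1 bp. Motifs were searched in GRCm38.p6 on both strands. With 1 list per antibody and condition no test was run. All 10 genes are named, besides pathway genes with a p65 promoter peak, the core IKK genes and the 5 genes with the most p65 peaks within 100 kb in WTLPS; the core IKK genes and single overlapping genes were named after their values were seen. The genes and lists were chosen with earlier results of these data known. Alternatives were other thresholds, equal list lengths, other windows, other start sites, joined peaks and leaving out each gene. Python 3.11.15, numpy 2.4.6, pandas 2.3.3, scipy 1.17.1, pysam 0.24.0 and samtools 1.23.1 were used.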

Additional observations from a re-analysis of the deposited data

Results flagged for a closer look

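Summed over the 10 genes, the SMC1 values with and without LPS differed in opposite directions in the 2 genotypes. The number of SMC1 peaks within 100 kb in WTLPS was 1.08 times that in WT, and in KOLPS 0.777 times that in KO. The bases covered by SMC1 peaks were 1.32 times as many in WTLPS as in WT and 0.741 times as many in KOLPS as in KO. Each side is 1 list against 1 list, so this difference was not tested. Of the 10 genes, 5 had more peaks in WTLPS than in WT and 4 fewer, and 2 had more in KOLPS than in KO and 8 fewer. The largest rises from WT to WTLPS were at Tnfaip3 (30 to 41) and Nfkbiz (20 to 27). Tnfaip3 also had more peaks in KOLPS (26) than in KO (23), so its counts did not go in opposite directions. The opposite directions were not seen under every setting. With peaks under 1 kb apart joined, the ratios were 1.0 and 0.676, and with lists of equal length 1.17 and 1.31. Over the whole SMC1 lists, the numbers of peaks gave 0.901 and 0.575. The coverage of the SMC1 libraries was 5.4 and 5.76 fragments per base in WT and WTLPS and 5.34 and 4.49 in KO and KOLPS, and the part of this depth in the difference was not tested.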

How the results depend on the processing

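Of 154 alternative values, 143 lay within 1.5 times the main value (for shares, inside its interval) without crossing from above to below a ratio of 1 or back, 3 lay farther off and 8 crossed. The p65 ratio of KO to WT is 1.0 and has no direction, and its alternatives ran from 0.833 to 1.33. With each list restricted to the length of the shortest list of its antibody, p65 was called at 3 promoters in WTLPS. The p65 ratios within 100 kb were then 0.778 for WTLPS to WT, 0.917 for KOLPS to KO and 1.57 for KOLPS to WTLPS. The CTCF ratios were 0.935 for KO to WT and 0.929 for KOLPS to WTLPS. The SMC1 ratios were 1.31 for KOLPS to KO, 1.45 for KO to WT and 1.63 for KOLPS to WTLPS. By construction, this alternative removes differences in list length. Counting H3K27ac peaks in place of bases gave 1.1 for KO to WT and 1.32 for KOLPS to WTLPS. With the start of the transcript with most exon bases, an alternative chosen after seeing the data, p65 was called at 5, 8, 5 and 5 promoters. With all annotated starts of each gene, the counts were 6, 9, 6 and 7. A gene without a KOLPS call at the start used here thus had one at another annotated start. The share of WTLPS p65 peaks found in KOLPS ran from 21.4% to 36.4% over all alternatives. No paired analysis was possible because each antibody and condition had 1 list, and for the same reason no replicate could be left out. No p65 peak means that the fragments needed for a call were not reached, not that p65 was absent. That number was 6 to 8 at the commonest background of a list, and higher where the local background was higher.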
